A study of Mus musculus with 18 samples.

Results

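Gene deserts are long stretches of chromosome with few or no protein-coding genes. The sites described here are the differential H3.3 sites that the authors' annotation placed in the class gene desert, in either of 2 deposited lists of sites from mouse nucleus accumbens. They number 345 of the 2300 listed sites. Of these, 200 stood among the 1286 sites that compared susceptible mice with controls, or 15.6%. The other 145 stood among the 1014 sites that compared acutely stressed mice with controls, or 14.3%.

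H3.3 is a variant of histone H3 that is built into chromatin at any time, not only when DNA is copied. It therefore accounts for much of the histone turnover in cells that have stopped dividing, such as neurons. The HIRA complex places it at active genes and regulatory elements, and the ATRX-DAXX complex places it at silent repeats. Some gene deserts carry distant enhancers that act on a flanking developmental gene, while others have no known function.

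The tissue was the nucleus accumbens, a ventral part of the striatum that takes part in reward and motivation, of C57Bl/6J mice. Chromatin was crosslinked, immunoprecipitated for H3.3 and sequenced, and each of the 3 conditions had 3 H3.3 libraries and 3 Input libraries, each pooling both accumbens of 5 animals. Control mice came straight from the home cage. Acutely stressed mice had no defeat history and met an aggressor for 5 min, followed by 55 min of housing beside it. Susceptible mice had been through chronic social defeat, were classed as susceptible by a social interaction test 48 h later, and were then given that 1 h exposure once more. Mice were killed on day 28 after the last defeat. No susceptible group without the renewed stress was analysed here, so the effects of the earlier defeat and of the renewed stress cannot be told apart. The sites carry no gene marker of the tissue, so its identity was not tested. In pooled tissue, a change in cell make-up and a change of H3.3 per cell cannot be told apart either.

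A listed site came with a normalised read count per library, from 3 susceptible and 2 control or from 2 acute stress and 2 control libraries. The sources used here do not say which labelled replicate a value belongs to, so libraries are named by their position. Nothing in the labels says more of their independence than that they are biological triplicates. Depth differed between libraries. A single read stood for 1.63, 0.828 and 1.47 normalised counts in susceptible libraries 1 to 3, and for 0.918 and 0.534 in the control libraries of that list. The corresponding values for the acute list were 0.951 and 1.43 for its stress libraries, with 1.08 and 0.657 for its controls. A higher value means a shallower library, and total library sizes are not known here.

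The desert class was first compared with the RefSeq gene positions of the same genome build, mm10. Of the susceptible list's desert sites, 95.0% lay in a gap of at least 1 Mb between neighbouring protein-coding genes, and of the acute list's 92.4%. The median distance to the nearest protein-coding gene was 454 kb in the susceptible list (quartiles 238 and 702 kb) and 481 kb in the acute list (quartiles 200 and 787 kb). Sites that the authors classed as other intergenic lay much closer, at medians of 43.5 and 50.1 kb. The largest distances were 1963 and 2090 kb. Most desert sites overlapped no RefSeq gene of any kind, 182 of 200 and 127 of 145. A long noncoding RNA gene overlapped 12 and 11 of them, and a pseudogene 2 and 0.

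**Figure D1:**
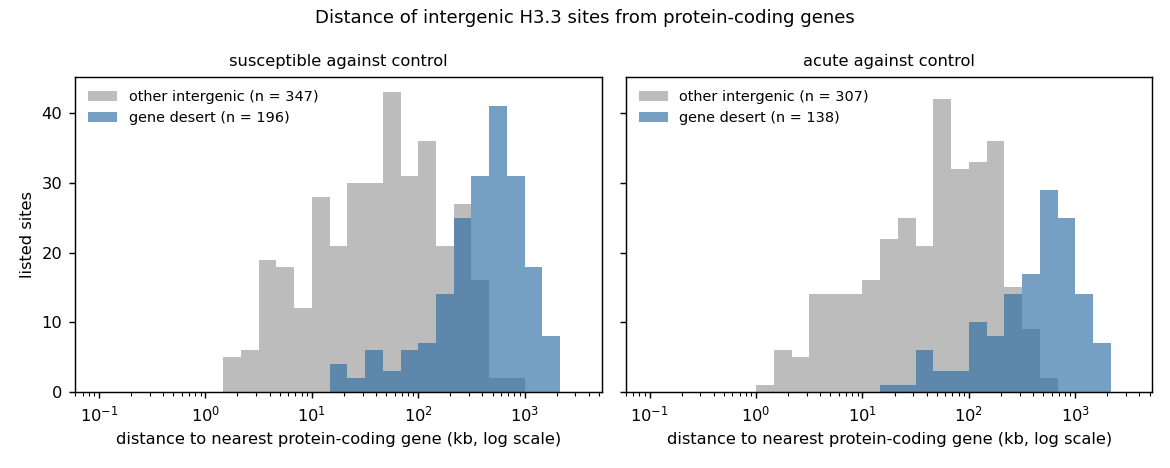
Histogram of the distance from each intergenic site's midpoint to the nearest RefSeq protein-coding gene, in kb on a log axis, for the susceptible list (left) and the acute list (right). Bars count sites, blue for the gene desert class and grey for other intergenic sites, and sites inside a coding gene are not drawn. Desert sites centre on 454 and 481 kb, other intergenic sites on 43.5 and 50.1 kb.

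The class and the gene models differed at a few positions. In the susceptible list 4 desert sites, and in the acute list 7, lay inside the RefSeq span of a coding gene. Among them were sites in Lsamp, an adhesion molecule of the IgLON family, at 2 susceptible positions and 1 acute position. Others lay in Nrg1, which encodes neuregulin 1, a ligand of ErbB receptors, and in Dpp10, which encodes an accessory subunit of potassium channels. The 2 acute Dpp10 sites went opposite ways, and the higher one held 16.2 and 12.9 normalised counts after stress against 2.16 and 3.29 in controls. The remaining genes were Robo1, a Slit receptor gene, Klf12, Naaladl2 and Gm6098.

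In susceptible mice that met the stressor again, H3.3 at the listed gene desert sites was lower than in controls almost throughout. Of the desert sites in the authors' deposited table, 197 were lower and 3 higher, against a background of 97.6% lower among all listed sites. The desert share, 98.5%, was near that background. Across the lower desert sites, the median normalised count was 1.63, 2.48 and 1.47 in susceptible libraries 1 to 3, beside 11.9 and 11.2 in controls 1 and 2. The highest susceptible value at any of these sites was 8.28 and the lowest control value was 9.61, so the libraries did not overlap at any of the 197. The same held at all 1255 lower sites of the list, 97.6% of all listed sites. Non-overlap is partly fixed by the listing: every lower site, in any class, had at least 11 reads in control library 1 and 18 in control library 2.

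Reads were few on the low side. The 197 lower desert sites held a median of 5 susceptible reads over 3 libraries (range 1 to 18) and of 34 control reads over 2 (range 29 to 68). In 106 of them each susceptible library had at least 1 read, in 76 a single library had none, and in 15 a pair of them had none. Zeros followed depth. Libraries 1 and 3, the shallower ones, had no read at 52 and 46 sites, and library 2 at 8. The median log2 fold change was -2.46 in the authors' deposited table (range -4.33 to -1.67), beside -2.42 over all lower sites of the list.

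**Figure D2:**
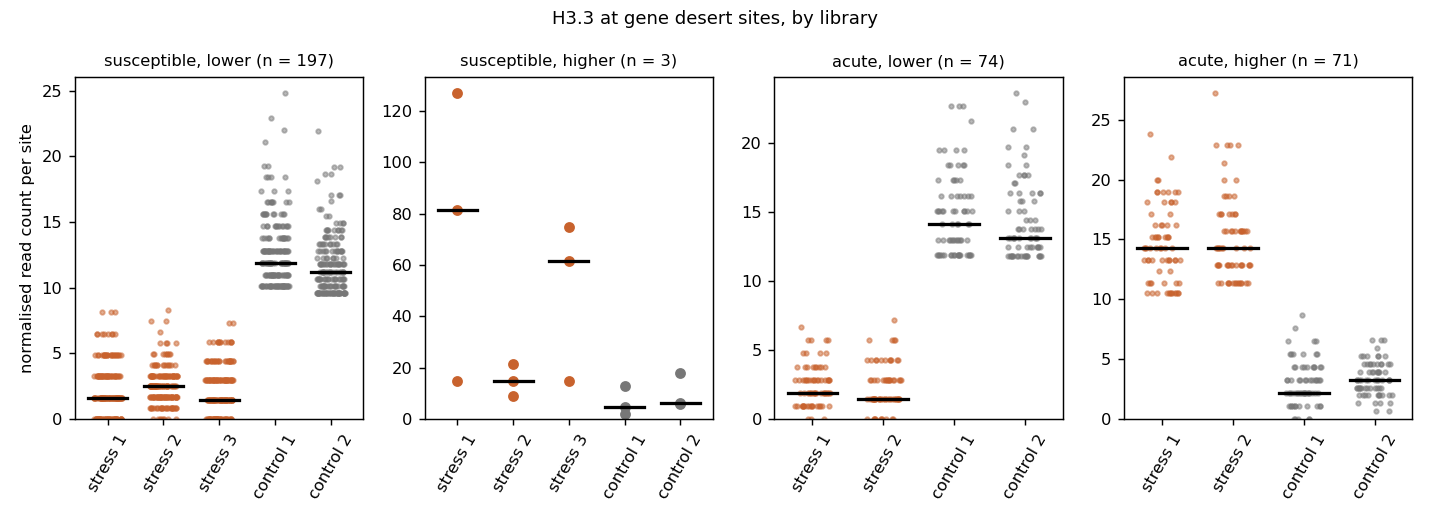
Normalised read count of every gene desert site (vertical axis) in each library (horizontal axis), with one panel for each list and direction, stress libraries in orange and control libraries in grey. Each point is a site, black lines are medians over sites, and the panels have their own vertical scales, all starting at 0. At lower sites stress and control libraries do not overlap, and 2 of the 3 susceptible higher sites stand far above all others in stress libraries 1 and 3.

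The lower desert site with the smallest p lay between Tmprss15, the enteropeptidase gene, and Ncam2, a neural cell adhesion gene (mm10, chromosome 16, 79279001 to 79279275). Normalised counts there were 1.63, 0 and 0 for susceptible mice, beside 11 and 10.7 for controls. With a single susceptible read and 32 control reads, the depth-adjusted fold was 27 (exact 95% interval 4.52 to 1101, counting error only). The site was picked for its small p, which tends to enlarge the fold, and the interval does not allow for that. The site stood 188 kb past Tmprss15 and 1922 kb from Ncam2.

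The next lay 40.9 kb from Nmbr, which encodes the neuromedin B receptor, in the 2.95 Mb gap before Cited2 (chromosome 10, 14812226 to 14812550). Its susceptible values were 1.63, 1.66 and 0, against 11.9 and 13.3 in controls. The third, between the zinc transporter gene Slc39a10 and Tmeff2 (chromosome 1, 50381251 to 50381675), held more reads on both sides. It measured 4.88, 2.48 and 1.47 in susceptible mice and 18.4 and 15.5 in controls, on 7 and 49 reads. The authors' deposited table gives these 3 sites log2 fold changes of -4.32, -3.53 and -2.52, each with an adjusted p of 0.000367.

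A site between the collagen lysyl hydroxylase gene Plod2 and Dipk2a (chromosome 9, 93793976 to 93794275) averaged 1.37 ± 1.26 (SD, n = 3) after defeat and renewed stress, against 13.3 ± 0.672 (SD, n = 2) in controls. A site inside the long noncoding RNA gene Gm16086 (chromosome 12, 107078251 to 107078500) averaged 0.49 ± 0.849 (SD, n = 3) against 9.85 ± 0.339 (SD, n = 2). One between the otolin gene Otol1 and the sucrase-isomaltase gene Sis (chromosome 3, 72304301 to 72304600) averaged 1.26 ± 1.52 (SD, n = 3) against 12 ± 1.16 (SD, n = 2). They rested on 4, 1 and 3 susceptible reads, and the authors' deposited table gives adjusted p of 0.000564, 0.000564 and 0.000644. At the edge of the list, with the largest p of the lower desert sites, was one 226 kb from Grin3a, an NMDA receptor subunit gene (chromosome 4, 50071901 to 50072225). Its values were 6.51, 1.66 and 4.40 in susceptible mice and 12.8 and 13.9 in controls, and the authors' deposited table gives p = 9.18e-05.

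Only 3 desert sites were higher in susceptible mice, where 2.41% of all listed sites were, and they were of 2 kinds. Stress and control libraries did not overlap at any of the 3, as at 28 of all 31 higher sites of the list (2.18% of all listed sites). The first lay 368 kb from Arid1b, a subunit gene of the SWI/SNF chromatin remodeller, inside the noncoding gene Gm34259 (chromosome 17, 4626201 to 4626450). Its susceptible values were 127, 9.10 and 74.9, against 4.59 and 6.41 in controls. The second, with the most reads of all desert sites in the list, lay 927 kb from Bcl11a, a zinc finger transcription factor gene (chromosome 11, 25099851 to 25100500). It held 81.4, 21.5 and 61.6 in susceptible mice and 12.8 and 18.1 in controls.

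At both sites libraries 1 and 3 were several times above library 2, and library 2 stood close to the controls. The means and spreads were 70.3 ± 59.1 and 54.9 ± 30.5 (SD, n = 3), so the spread among susceptible libraries was of the order of the difference itself. The authors' deposited table gives enrichment ratios of 0.26 in susceptible mice and 0 in controls at the first, and 0.33 and 0.02 at the second. The reference of the ratio is not known here. Both susceptible values were under 1. The third site lay between the Notch ligand gene Jag1 and Btbd3, inside the noncoding gene Gm14064 (chromosome 2, 137696326 to 137696725). It was even, at 14.7, 14.9 and 14.7 in susceptible mice against 1.84 and 5.87 in controls, on 37 and 13 reads. The authors' deposited table gives it p = 9.32e-05, the largest of that list.

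The acute list sets mice that met an aggressor once beside home cage controls. Its desert sites split almost evenly, with 74 lower and 71 higher in the authors' deposited table. The lower share was 51.0% in deserts and 46.6% over all listed sites, and the higher share 49.0% and 53.4%. Other intergenic sites were lower at 37.8% and gene body sites at 50.9%. Whether deserts differ from these classes was not tested.

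Acute lower desert sites held a median of 1.90 and 1.43 normalised counts in the acute stress libraries and of 14.1 and 13.1 in the controls. The highest acute stress value was 7.15 and the lowest control value 11.8. Higher desert sites held medians of 14.3 and 14.3 after acute stress and of 2.16 and 3.29 in controls, with a lowest stress value of 10.5 and a highest control value of 8.65. Stress and control libraries thus overlapped at none of the 145 desert sites, and at none of the 1014 listed sites (46.6% lower and 53.4% higher). Here too non-overlap is partly fixed by the listing. In any class, acute lower sites had at least 11 and 18 reads in control libraries 1 and 2. Acute higher sites had at least 11 and 8 reads in stress libraries 1 and 2. The median log2 fold changes in the authors' deposited table were -2.71 and 2.26, beside -2.64 and 2.2 over all lower and higher sites.

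The acute lower site with the smallest p lay 279 kb from Dcc, the netrin receptor gene (chromosome 18, 72630426 to 72630900). It held 3.80 and 4.29 normalised counts after acute stress and 22.7 and 21.0 in controls, on 7 and 53 reads. The next lay 344 kb from Cdh8, a type II classical cadherin gene, in the gap before Cdh11 (chromosome 8, 99762001 to 99762300). Its values were 0.95 and 1.43 after stress and 16.2 and 13.8 in controls, on 2 and 36 reads. At both sites the library pairs were close to each other and far apart between groups, in a list where the libraries overlapped at no site.

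Others with the smallest p lay 131 kb from Adgra3, an adhesion G protein-coupled receptor gene (chromosome 5, 50189951 to 50190325), and 660 kb from Agtr1b, an angiotensin II receptor gene (chromosome 3, 21027051 to 21027400). They fell from 21.0 ± 3.72 to 3.57 ± 1.02 and from 18.6 ± 1.22 to 3.33 ± 3.37 (SD, n = 2 each). The second of them was uneven, at 0.95 and 5.72 in the 2 stress libraries. A site inside Dpp10 (chromosome 1, 124364701 to 124365025) dropped to 2.14 ± 1.0 after stress against 17.6 ± 2.62 in controls (SD, n = 2 for both). The last of the 6 lay between Got2 and Cdh8 and is described with the shared sites. The authors' deposited table gives all 6 an adjusted p of 0.00689, with log2 fold changes from -3.66 to -2.43. The lower site with the largest p lay 200 kb from the metabotropic glutamate receptor gene Grm8 (chromosome 6, 27074801 to 27075125), with 4.75 and 2.86 after stress and 17.3 and 15.8 in controls.

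Among higher acute sites, the smallest p was at a site 1248 kb from Cntnap5a, a gene of the contactin-associated protein family (chromosome 1, 114436626 to 114437050). It held 21.9 and 18.6 normalised counts after stress and 5.41 and 3.94 in controls, on 36 and 11 reads. A site 665 kb from Brinp3 (chromosome 1, 147567076 to 147567350) held 10.5 and 11.4 against 1.08 and 0.66. With 19 and 2 reads, the depth-adjusted fold was 13.3 (exact 95% interval 3.20 to 117, with no allowance for the choice of the site by its p). In both, each stress library lay above each control library by more than either pair differed within itself. The libraries overlapped at no site of this list, so the separation alone is not particular to these sites.

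The third lay in the 3.41 Mb gap before Ctnna2, which encodes alpha-N-catenin (chromosome 6, 74119276 to 74119575), and rose from 2.06 ± 0.134 to 15.0 ± 1.03 (SD, n = 2 each). The fourth, with the most reads of the list's desert sites, lay between Cdh8 and Cdh11 (chromosome 8, 101680751 to 101681225). It rose from 7.61 ± 1.47 to 25.5 ± 2.40 (SD, n = 2 each), on 18 and 44 reads. A site in the noncoding gene Gm30184, 98.5 kb from Intu (chromosome 3, 40432626 to 40432875), held 13.3 and 11.4 against 0 and 2.63. The sixth lay between 4931408C20Rik and Gm597 (chromosome 1, 27291251 to 27291675) and rose from 4.04 ± 2.65 to 18.6 ± 1.99 (SD, n = 2 each). Log2 fold changes of these 6 sites ran from 1.74 to 3.65, and adjusted p from 0.00689 to 0.00811, in the authors' deposited table. At the edge of the list, a site 63.7 kb from Olfm4 (chromosome 14, 80086651 to 80086950) held 15.2 and 15.7 against 5.41 and 3.29.

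At most lower desert sites the deposited p was close to what read counting alone gives. For each site, the share of reads from stress libraries was set against their share of the depth in an exact binomial test, two-sided. This covers counting error only and leaves out the spread between libraries. The deposited p was within 2-fold of it at 182 of 197 susceptible lower sites, 69 of 74 acute lower sites and 40 of 71 acute higher sites. Of the susceptible lower desert sites, 159 shared their pair of read totals with another desert site of the list, and 137 of these had the p of that pair to within 0.1%. At the Arid1b site, where the susceptible libraries were far apart, the p of 6.13e-08 in the authors' deposited table stood against a counting p of 2.89e-30.

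The listing used the same reads and the same threshold, 0.0001, so most calls of the counting test were fixed in advance. At 0.0001 the counting test called 195 of the 197 susceptible lower desert sites, or 99.0%, beside 98.8% of all sites listed as lower (96.4% of all listed sites were called lower). It called the 3 higher ones, beside 83.9% of all sites listed as higher (2.02% of all listed sites were called higher). It called 72 of 74 acute lower desert sites, or 97.3%, beside 96.0% of all sites listed as lower (44.8% of all listed sites were called lower). Of the 71 acute higher ones it called 51, or 71.8%, beside 67.8% of all sites listed as higher (36.2% were called higher). The calls rested on all libraries. With 1 library left out, the susceptible lower count was 75, 38 and 66 without susceptible library 1, 2 or 3, and 82 and 37 without control library 1 or 2. As shares these were 38.1%, 19.3%, 33.5%, 41.6% and 18.8% of the desert sites, beside 38.8%, 13.6%, 31.6%, 34.7% and 15.9% of all lower sites. The acute lower count was 1 and 11 without acute stress library 1 or 2, and 33 and 13 without control library 1 or 2. Those were 1.35%, 14.9%, 44.6% and 17.6%, beside 2.11%, 10.8%, 33.6% and 16.5% of all lower sites. The acute higher count was 4, 9, 6 and 1 in the same order, or 5.63%, 12.7%, 8.45% and 1.41%, beside 9.24%, 9.98%, 10.7% and 1.29% of all higher sites. The 3 susceptible higher sites gave 2 calls in each case. Calls were thus lost across the lists, and whether the desert shares differ from the others was not tested. At a deposited p of at most 0.00001, 47 susceptible lower desert sites remained on the list, or 23.9%, beside 20.7% of all its lower sites (20.2% of all listed sites). So did 2 of the 3 higher ones, beside 35.5% of all its higher sites (0.855% of all listed sites). For acute lower desert sites the count was 19 (25.7%, beside 16.9% of all lower and 7.89% of all listed sites), and for acute higher ones 17 (23.9%, beside 15.5% and 8.28%). At a deposited adjusted p of at most 0.001 there were 20 of the 197 susceptible lower desert sites, beside 87 of all 1255 lower sites (6.77% of all listed sites). There were 2 of the 3 higher ones, beside 8 of all 31 higher sites (0.622%). No acute desert site, and no acute site of any class, had an adjusted p that small.

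Enrichment ratios in the authors' deposited table were often infinite. At 70.6% of susceptible lower desert sites the control ratio was listed as infinite, beside 60.3% of all lower sites, and at 16.2% the susceptible one was, beside 10.4%. With infinite ratios counted as the higher, the susceptible ratio was below the control ratio at 136 of the 197 sites and above it at 36. Both ratios were finite at 50 sites, with 21 below and 28 above, beside 233 below and 220 above over all lower sites. At acute lower desert sites the stress ratio was below the control ratio at 35 and above it at 11. With both finite it was below at 10 of 11, beside 123 of 134 over all lower sites. At acute higher desert sites it was below at 30 and above at 22, against the direction of the counts. With both finite it was above at 9 of 9, beside 135 of 137 over all higher sites.

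Along the genome, desert sites were spread over many deserts. RefSeq has 258 gaps of at least 1 Mb between protein-coding genes on the 19 autosomes, 474 Mb in all. Susceptible desert sites fell in 46.1% of these long gaps and acute ones in 34.5%. There were 4.01 susceptible and 2.83 acute desert sites per 10 Mb of long gap. Lower sites were the majority on all 19 autosomes in the susceptible list, while in the acute list they were the majority on 10, the minority on 6 and level on 2.

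Chromosome 1 had the most susceptible desert sites, 24, and chromosome 3 the most acute ones, 21. Chromosome 15 held 13 susceptible but 2 acute desert sites, and chromosome 16 held 9 and 13. Per 10 Mb of long gap, the susceptible list ranged from 2.26 on chromosome 7 to 5.86 on chromosome 11. The acute list ranged from 0 on chromosome 19 to 5.66 on chromosome 16. These counts are descriptions, and differences between chromosomes were not tested.

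**Figure D3:**
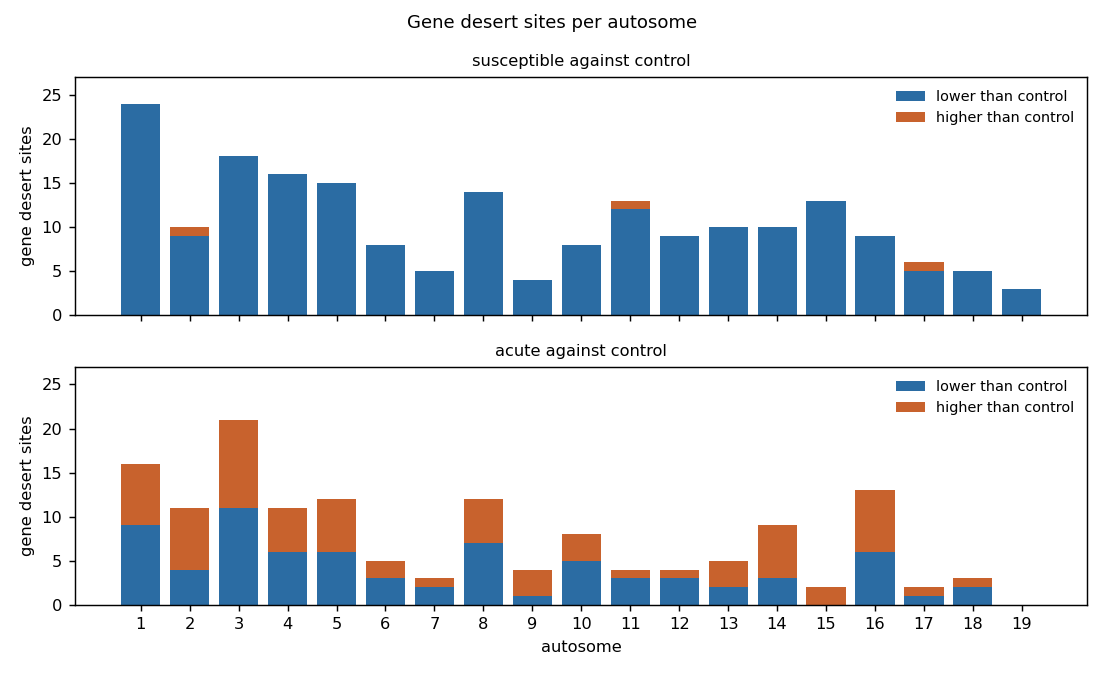
Number of gene desert sites on each autosome (horizontal axis) in the susceptible list (top) and the acute list (bottom), with lower sites in blue and higher sites stacked on them in orange. Lower sites make up nearly every bar in the susceptible list, while both directions stand on most autosomes in the acute list.

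Several deserts held more than a single site. In the susceptible list 48 deserts carried 2 or more sites, 119 sites in all, and in the acute list 27 deserts carried 73. Both lists had sites in 55 deserts. Of the 27 acute deserts with 2 or more sites, 18 held lower and higher sites together, 5 only lower and 4 only higher ones. The deserts named next were picked for their number of sites after the values were seen.

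The desert between Alcam, an immunoglobulin-family adhesion gene, and Zpld1 spans 2.77 Mb of chromosome 16 and held 7 sites, the most of any. Its single susceptible site was lower, while of its 6 acute sites 4 were higher and 2 lower. Along the gap the acute directions were mixed. The sites at 305 and 443 kb past Alcam rose to 12.4 ± 2.71 and 16.9 ± 1.65 normalised counts, from 2.28 ± 1.36 and 3.38 ± 1.73 (SD, n = 2 each). The one at 699 kb averaged 1.43 ± 2.02 after stress, below the 12.2 ± 0.410 of controls (SD, n = 2 each). At 1335 kb the acute count was higher, 11.4 in both stress libraries against 2.16 and 1.97, at 1621 kb it was lower, and at 2092 kb higher again. The susceptible site, 1364 kb past Alcam, held 0, 0.83 and 4.40 against 11 and 10.7.

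Between Celf2, an RNA-binding protein gene, and the transcription factor gene Gata3 (2.46 Mb, chromosome 2), 3 susceptible sites were lower, and of 3 acute sites 1 was lower and 2 higher. The acute higher site 597 kb before Gata3 held 12.4 and 12.9 against 2.16 and 1.97. In the desert between Adgra3 and Ppargc1a, the gene of the mitochondrial biogenesis coactivator PGC-1alpha (1.40 Mb, chromosome 5), all 5 sites were lower, 2 susceptible and 3 acute. That gave 3.58 sites per Mb of gap. Between Nudt12 and the ephrin gene Efna5 (3.59 Mb, chromosome 17), 4 susceptible sites were lower and the single acute site was higher, at 16.2 and 12.9 against 3.24 and 3.94.

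**Figure D4:**
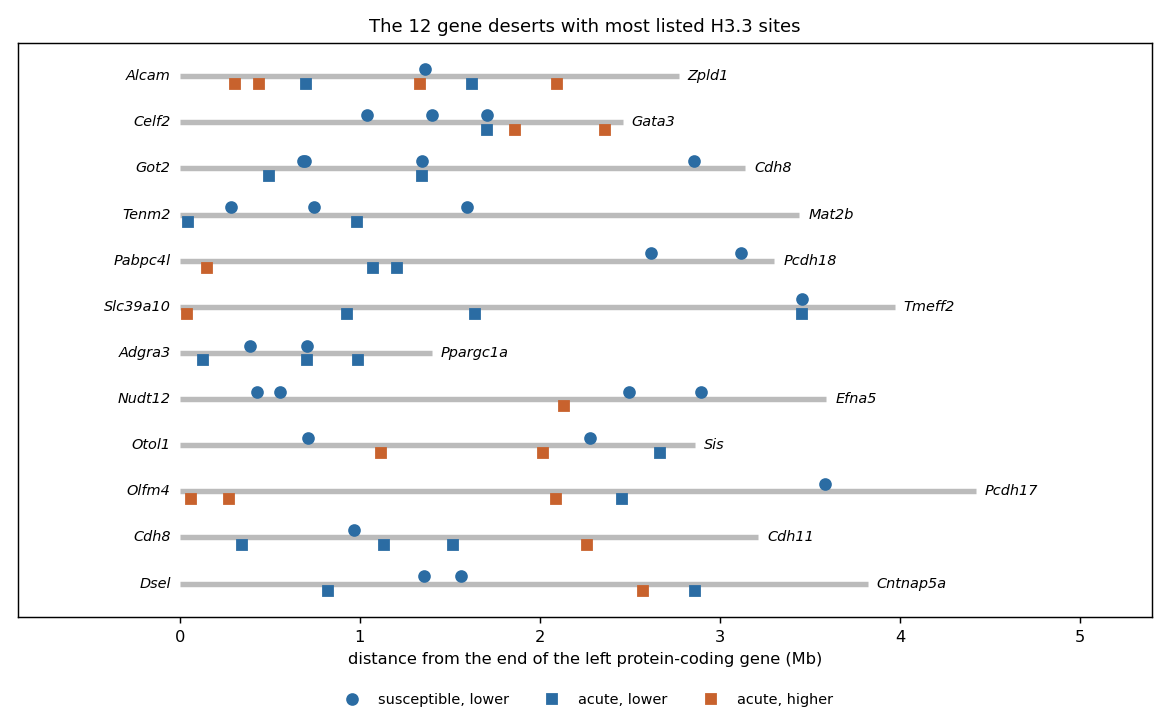
Positions of listed sites in the 12 gene deserts with the most sites, as distance in Mb from the end of the left protein-coding gene. Grey bars span each gap, with the flanking genes named in italics, circles are susceptible sites, squares acute sites, blue lower and orange higher than control. The Alcam to Zpld1 desert carries 7 sites, and in the Got2 to Cdh8 and Adgra3 to Ppargc1a deserts every site is lower.

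Cadherins and protocadherins, calcium-dependent adhesion proteins of neurons and other cells, flank many long deserts, and this group was also picked after the values were seen. The members counted here border 19 of the long gaps, 11.5% of the total gap length. These gaps held 34 of the 190 susceptible desert sites in long gaps (17.9%), all lower, and 18 of 134 acute ones (13.4%), with 9 lower and 9 higher. A chosen set of other adhesion and axon guidance genes borders 40 long gaps, 94.9 of the 474 Mb. It had 43 susceptible sites (22.6%), all lower, and 36 acute sites (26.9%), with 15 lower and 21 higher. Neither group is complete. The first left out Fat4, and the second Adgra3, Kirrel3, Nectin3, Mdga2 and Ptprd, each beside a long gap with listed sites. The gap between Cntnap5b and Cdh20 counts in both groups. Neither share was tested, and nothing in these counts ties a site to a flanking gene.

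Of the cadherin deserts, the gap between Cdh6 and Cdh9 on chromosome 15 (3.55 Mb) held 4 susceptible lower sites and no acute site. Their means were between 1.53 and 2.08 in susceptible mice and between 9.85 and 10.8 in controls. The gap between Got2, a mitochondrial aspartate aminotransferase gene, and Cdh8 on chromosome 8 (3.14 Mb) held 6 sites, all lower, 4 susceptible and 2 acute. The next gap, between Cdh8 and Cdh11 (3.21 Mb), held 1 susceptible lower site, with 3 lower and 1 higher acute sites. Between Olfm4 and Pcdh17 on chromosome 14 (4.42 Mb), the susceptible site was lower, and of 4 acute sites 3 were higher.

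Some sites lay close together. The closest pair was in the desert after Lingo2, a neuronal leucine-rich repeat gene (chromosome 4), where 2 susceptible lower sites stood 8.20 kb apart. They held 0, 6.62 and 2.94 against 18.4 and 13.9, and 0, 0.83 and 5.87 against 11 and 11.2. Pairs 9.90 kb apart between Camk1g, a calmodulin-dependent kinase gene, and the plexin gene Plxna2 (chromosome 1), 13.8 kb apart between Got2 and Cdh8, and 14.1 kb apart between Pdcd1 and Fam174a (chromosome 1) were lower in susceptible mice as well. In the acute list the closest pair was 28.3 kb apart, both higher, between the phosphatase gene Ptprd and Tyrp1 on chromosome 4. The next acute pair, 49.9 kb apart between Snx16 and the RNA-binding protein gene Ralyl (chromosome 3), went opposite ways. Its lower site held 5.70 and 1.43 against 15.1 and 17.7, and its higher site 10.5 and 11.4 against 1.08 and 1.31.

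At 12 positions the desert sites of the 2 lists overlapped, 6.00% of the susceptible and 8.28% of the acute desert sites. Over all classes, 48 susceptible sites overlapped an acute site, or 3.73%, and the difference was not tested. All 12 were lower in both. The 2 comparisons share their control libraries, so the overlap is no independent repeat, and the values are set side by side. Of the 12, 6 had identical coordinates in the susceptible and the acute list, and the control reads matched exactly at all 6. The same control reads carry normalised values 1.18 and 1.23 times as high in the acute list for the 2 control libraries.

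The shared site with the smallest susceptible p was the one between Slc39a10 and Tmeff2. After acute stress it held 5.70 and 1.43 against 19.5 and 18.4 in controls. Between Cntn3 and Chl1, a pair of neural adhesion genes (chromosome 6, 103110326 to 103110650), the susceptible libraries held 3.26, 0 and 2.94 against 13.8 and 11.8. The acute stress libraries held 0.95 and 4.29 there, against 16.2 and 14.4. At both sites each stress library of either condition was below each control library, as at every lower site of both lists.

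The Nrg1 site (chromosome 8, 32005551 to 32006000 in the susceptible list) was the best covered of the shared sites, with 15 susceptible and 59 control reads. It held 8.14, 4.97 and 5.87 against 21.1 and 19.2, and 5.70 and 4.29 after acute stress against 22.7 and 17.7. Its deposited log2 fold changes, -1.67 and -2.02 in the authors' deposited table, were among the smaller ones. The Ppargc1a desert had a shared site 690 kb before that gene (chromosome 5, 50763551 to 50763950), with 4.88, 5.79 and 1.47 in susceptible mice against 14.7 and 18.7. After acute stress it held 4.75 and 2.86 against 17.3 and 23.0.

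Between Stxbp6 and Nova1, a neuronal splicing regulator gene (chromosome 12, 45621551 to 45621900), the means were 2.96 ± 1.36 (SD, n = 3) in susceptible mice against 14.5 ± 0.191 (SD, n = 2). After acute stress they were 4.29 ± 2.03 against 18.1 ± 0.460 (SD, n = 2 each). At the Got2 to Cdh8 site (chromosome 8, 97233601 to 97233925) the susceptible libraries held 1.63, 5.79 and 0, and the acute ones 1.90 and 2.86, against 14.7 and 13.9 and against 17.3 and 17.1. The Gata3 desert (chromosome 2, 9101626 to 9101900) and the desert after Ythdf3, an m6A reader gene (chromosome 3, 16416526 to 16416775), completed the 8 shared sites with the smallest susceptible p. Their susceptible means were 1.65 ± 1.66 and 2.55 ± 2.28 (SD, n = 3), and their acute means 2.61 ± 1.68 and 2.14 ± 1.0 (SD, n = 2). The other 4 lay between Snx16 and Ralyl, Ttll7 and Adgrl2, Nup35 and Zfp804a, and after Lingo2. Their log2 fold changes in the authors' deposited table ran from -3.16 to -1.90 in susceptible mice and from -3.72 to -1.76 after acute stress.

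**Figure D5:**
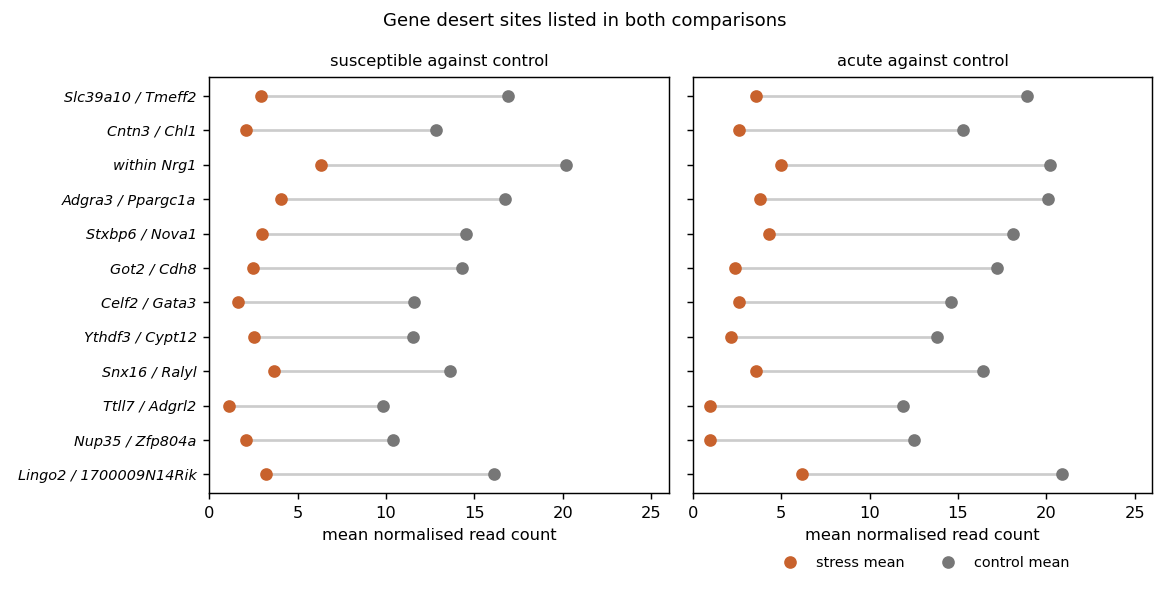
Mean normalised read count of stress libraries (orange) and control libraries (grey) at the 12 gene desert sites listed in both comparisons, for the susceptible list (left) and the acute list (right). Sites are named by their flanking genes, except the site within Nrg1, which is named by that gene. Each row is a site, and at all 12 the stress mean is lower than the control mean in both lists. The control libraries are the same in both panels but were scaled separately.

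No site was higher in both lists, and no desert position was listed as lower in one and higher in the other. With the same control libraries in both lists, this was largely fixed by the listing. Susceptible lower desert sites had at least 29 control reads and acute higher ones at most 18. Only 3 desert sites were higher in the susceptible list. Within the same desert, opposite directions did occur. In 34 deserts a susceptible lower site stood together with an acute higher one, and in 38 with an acute lower one. The deserts with a susceptible lower site held 44 of the 71 acute higher and 52 of the 74 acute lower desert sites. The shared sites, except the Nrg1 site, enter the 38 deserts and the 52 acute lower sites by construction. The lower and higher counts therefore cannot be compared.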

How the data were processed

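For the H3.3 ChIP and Input libraries, the submitters' processing notes list Bowtie2 2.2.0, SAMtools 0.1.19 and mm10. Per the file names, the authors ran diffReps with windows of 250 bp and a p threshold. The sources used here do not give its version, test or normalisation. The authors deposited, for each site, normalised read counts per library, a mean coverage signal per group, an enrichment ratio per group, a log2 fold change, and a p-value with its adjusted value. Only listed sites were deposited with values, which allows no model across the genome, and the listing p is theirs.

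Whole reads were recovered by dividing each library's values by the value of 1 read (99.1% to 100% whole within 0.011) and tested with scipy 1.17.1. The method was tested on simulated reads with counting error only. As these had no added spread between libraries, they could not check the effect of that spread. The two-sided p sums all outcomes no more likely than the one observed. Intervals are exact Clopper-Pearson and cover counting error only, with no allowance for the choice of sites by small p. Gaps and distances used site midpoints and the RefSeq gene spans of GRCm38.p6, the assembly of mm10.

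Members and lists were chosen with earlier results of these data known. Sites named are the 6 with the smallest deposited p per list and direction, the one with the largest p, that with the most reads, the first 8 shared sites (overlap of at least 1 bp) and the closest pairs. Other sites, and the deserts and flanking gene groups named, were chosen after their values were seen. The desert sites overlapped no RefSeq promoter or miRNA sequence, so none is printed.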

Additional observations from a re-analysis of the deposited data

How the results depend on the processing

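No paired analysis was possible because the values per library carry no replicate number, so the planned replicate block was not run. Counts listed were 197 susceptible lower, 3 susceptible higher, 74 acute lower and 71 acute higher desert sites. At a deposited p of at most 0.00001 they were 47, 2, 19 and 17, and at an adjusted p of at most 0.001 20, 2, 0 and 0. The acute list's smallest adjusted p at desert sites was 0.00689. The cause of these drops is the stricter threshold. Taking sites of any class over 500 kb from a coding gene gave 98, 2, 40 and 36. The counting test, on the same reads and at the threshold of the listing, gave 195, 3, 72 and 51. With the smaller tail doubled, an alternative added after seeing the data, it gave 168, 3, 64 and 35. The matching shares over all listed sites are not given here, and whether these drops are particular to deserts was not tested. Leaving out 1 library in turn, it gave 37 to 82, 2 to 2, 1 to 33 and 1 to 9, with fewer reads per site. Requiring at least 30 reads gave 197, 3, 74 and 48. Only the acute higher count could fall, as sites of the other groups had at least 30, 50 and 30 reads. The share of all acute higher sites that this kept is not given here. With a pseudocount of 1 the median log2 fold changes were -2.03, 1.76, -2.23 and 1.93. A pseudocount added to both groups cannot reverse a direction. Leaving out 1 library moved these medians to between -2.10 and -1.96, 1.54 and 2.47, -2.46 and -2.21, and 1.83 and 2.08. This could not reverse a direction either, as stress and control libraries overlapped at no desert site. The 12 shared sites remained 12 under both other overlap rules, coverage of most of the shorter site and midpoints within 1000 bp. Listed sites were at most 650 bp long, so the midpoint rule could add sites but lose none. The smallest shared overlap was 250 bp.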
